A study of Mus musculus with 4 samples.

Results

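The genes described here are 42 keratin, tight junction, desmosome and epithelial surface genes of the mouse, measured by RNA sequencing in the cranial neural tube at embryonic day 10.5. They were taken from a fixed list of symbols, matched by GENCODE M21 names, and kept where the 4 libraries together held at least 20 counts. All 42 listed genes met this rule, out of 54532 gene IDs in the count table. Pkp1 lay just inside it with 21 counts, followed by Marveld3 with 66. Of genes of the same families that are not on the list, Prss22 with 19 and Cldn15 with 17 counts lay just below the threshold. The list was drawn up with results of these libraries in view, so counts over its members are a description, not independent support for a direction.

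Both groups held 2 embryos, with 1 library each. DCKO embryos carried homozygous floxed alleles of Lats1 (Lats1 flox/flox) and of Lats2 (Lats2 flox/flox), the Hippo pathway kinases that restrain YAP and TAZ, together with the transgene E2f1 Tg(Wnt1-cre)2Sor/+. Control embryos lacked that transgene, and the labels do not say which Lats1 and Lats2 alleles they carried. Wnt1 regulatory sequences drive Cre in the dorsal neural tube and the neural crest that leaves it, so only part of the dissected tissue is targeted, and effects of the transgene itself cannot be told apart from loss of the kinases.

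Keratins of simple epithelia pair into filaments inside the cell, with a type I partner (Krt18, Krt19) bound to a type II partner (Krt7, Krt8). Desmosomes anchor these filaments at cell contacts: the cadherins Dsg2 and Dsc2 hold neighbouring cells, plakoglobin and plakophilins bind the cadherin tails, and desmoplakin links them to keratin. Tight junctions seal the space between cells through claudins and occludin, which are held from inside by zonula occludens proteins. The neural plate expresses many of these genes before it closes. The neural tube then loses occludin and most epithelial claudins and holds its cells together by N-cadherin and zonula occludens proteins instead, while the surface ectoderm beside it keeps them.

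Library totals ranged from 41798361 to 55137810 counts. The neural tube markers Sox2, Nes and Pax6 were present in every library, Nes with 61919 and 57839 counts in the Control pair against 12294 and 9307 in the DCKO pair. Levels are given as CPM, counts scaled to library depth. Lats1, a targeted gene, had 44.2 and 65.6 CPM in the Control pair against 30.02 and 29.7 in the DCKO pair (log2 fold change -0.88, SE 0.23, adjusted p 0.0538). Lats2 had 26.7 and 13.3 CPM in the Control pair against 21.2 and 35.3 in the DCKO pair, with overlapping groups (log2 fold change 0.498, SE 0.41, adjusted p 0.426). The floxed exons are not given in the sources used here, so whole-gene counts do not check the deletion. Xist, the RNA that coats an inactive X, was read with 10837 and 7786 counts in the Control pair against 8 and 22 in the DCKO pair, so embryo sex and group cannot be told apart, and 0 of the 42 genes lie on chromosome X. The 4 genes that each held over 1% of some library took 14.5% and 14.6% of the Control totals, and 27.3% and 32.1% of the DCKO totals. Most of this came from Gm26917, annotated as a long noncoding RNA on chromosome 17.

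The members were higher in DCKO in each of the 4 classes, and no member was called lower. Among all 19207 genes in the test, 8.93% were called higher and 8.11% lower at an adjusted p below 0.05 (edgeR quasi-likelihood test). Of the 42 members, 41 passed the filter on low counts, 31 of these were called higher and 10 were not called. Of the 2 members with a fold change below 0, neither had an unadjusted p below 0.05, and DESeq2 likewise called 0 members lower. The filter matters for this count, since 13 of the 41 exceeded its level in DCKO libraries alone, and all 13 were called. These 13 could not come out lower, and they also enter the medians and the counts by class. Among the 28 that also exceeded the filter level in a Control library, 18 were called higher. Both DCKO libraries lay above both Control libraries for 36 of the 41, against 33.6% of all genes tested, and below them for 1, against 32.9%. The median log2 fold change was 3.65, against 0.03 over all genes tested, and it was the same with genes at 0 in Control set to their lower bound. In dissected tissue, a larger number of expressing cells and more RNA per cell cannot be told apart.

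**Figure D1:**
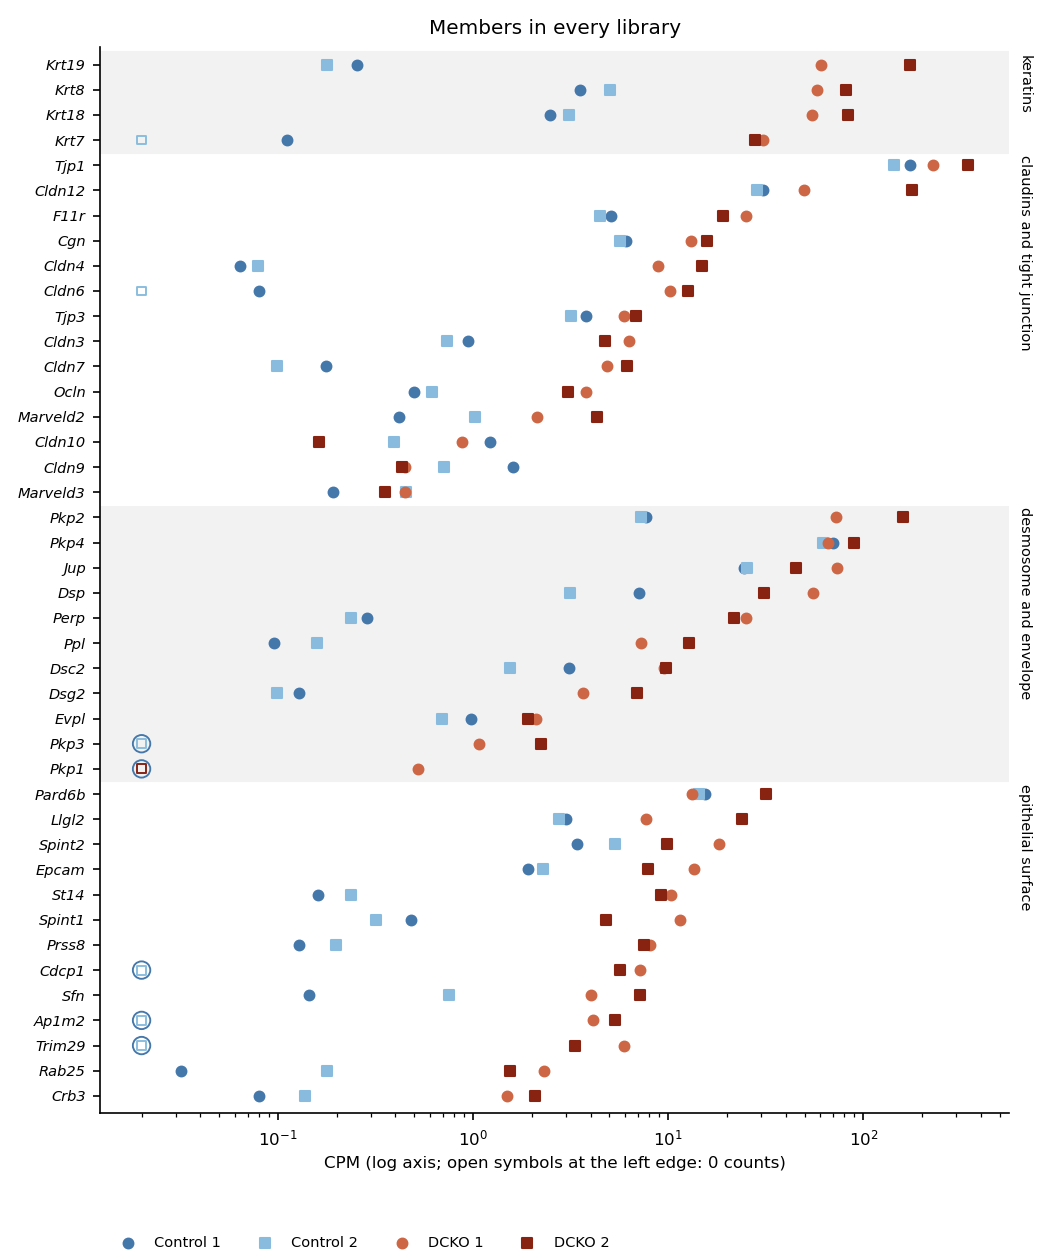
CPM (counts scaled to library depth, log axis) of the 42 genes in each of the 4 libraries, grouped by class and ordered within a class by the DCKO mean. Open symbols at the left edge mark 0 counts (for Pkp1 this holds for Control 1, Control 2 and DCKO 2). In most rows both DCKO symbols lie to the right of both Control symbols, with Krt7, Krt19, Cldn4 and Perp among the widest gaps and Cldn9 in the opposite order.

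Promoters are shown here because most of them share a 6-letter word. RefSeq gave 36 promoter windows on GRCm38.p6, each from 250 bases before to 50 bases after a transcription start, for 27 of the 42 genes. The 8 stretches below are the 250 bases before the start, read 5′ to 3′ on the strand of the gene. Capitals mark the E-box CAGGTG on either strand (CACCTG on the other), a word that the repressors of the Snail and Zeb families are known to bind. Krt8, Krt18, Cldn4, Cldn7, Ap1m2 and Epcam are shown as genes called higher that hold it. Cldn7 has 2 windows, and the other, upstream of the window shown, does not hold the word. Tjp1 and Cldn12 are shown as genes that were not called and do not hold it. Their levels were not unchanged: both DCKO libraries lay above both Control libraries in CPM for each. Both also pass in the authors' deposited table, so they are not a contrast of unaffected genes. Other called genes lack the word and other uncalled genes hold it, as counted below.
Krt8, chr15:102004343-102004592, minus strand: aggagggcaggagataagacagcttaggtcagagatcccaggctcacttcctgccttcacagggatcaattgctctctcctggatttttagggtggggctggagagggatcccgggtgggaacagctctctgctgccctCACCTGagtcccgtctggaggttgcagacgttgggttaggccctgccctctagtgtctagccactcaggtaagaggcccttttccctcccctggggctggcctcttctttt
Krt18, chr15:102027966-102028215, plus strand: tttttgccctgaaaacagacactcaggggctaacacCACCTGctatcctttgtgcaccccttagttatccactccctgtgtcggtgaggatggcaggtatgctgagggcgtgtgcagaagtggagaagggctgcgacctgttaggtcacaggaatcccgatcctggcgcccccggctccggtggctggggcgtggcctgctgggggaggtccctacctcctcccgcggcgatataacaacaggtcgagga
Cldn4, chr5:134946935-134947184, minus strand: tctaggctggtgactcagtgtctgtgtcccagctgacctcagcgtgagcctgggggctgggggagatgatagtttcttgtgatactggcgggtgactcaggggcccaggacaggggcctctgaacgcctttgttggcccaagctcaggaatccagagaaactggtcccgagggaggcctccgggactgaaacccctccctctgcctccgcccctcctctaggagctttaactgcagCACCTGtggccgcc
Cldn7, chr11:69965171-69965420, plus strand: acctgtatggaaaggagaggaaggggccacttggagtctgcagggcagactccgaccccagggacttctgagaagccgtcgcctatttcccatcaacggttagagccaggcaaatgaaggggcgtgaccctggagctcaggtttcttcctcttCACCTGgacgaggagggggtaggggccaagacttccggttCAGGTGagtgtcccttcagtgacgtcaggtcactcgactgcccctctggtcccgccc
Ap1m2, chr9:21312334-21312583, minus strand: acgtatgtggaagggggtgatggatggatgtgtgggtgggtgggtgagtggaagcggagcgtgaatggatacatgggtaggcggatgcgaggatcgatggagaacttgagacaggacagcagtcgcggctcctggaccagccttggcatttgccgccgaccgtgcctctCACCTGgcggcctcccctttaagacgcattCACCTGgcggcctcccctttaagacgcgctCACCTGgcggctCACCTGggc
Epcam, chr17:87635729-87635978, plus strand: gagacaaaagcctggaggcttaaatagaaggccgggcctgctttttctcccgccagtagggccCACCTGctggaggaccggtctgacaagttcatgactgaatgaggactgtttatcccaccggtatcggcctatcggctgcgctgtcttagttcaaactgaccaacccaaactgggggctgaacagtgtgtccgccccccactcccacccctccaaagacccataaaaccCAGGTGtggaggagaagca
Tjp1, chr7:65371245-65371494, minus strand: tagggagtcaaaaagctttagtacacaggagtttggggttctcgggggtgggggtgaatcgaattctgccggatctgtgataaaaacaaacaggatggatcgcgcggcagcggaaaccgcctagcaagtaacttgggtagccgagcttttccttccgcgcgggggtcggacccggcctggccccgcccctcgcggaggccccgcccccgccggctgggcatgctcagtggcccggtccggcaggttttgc
Cldn12, chr5:5514977-5515226, minus strand: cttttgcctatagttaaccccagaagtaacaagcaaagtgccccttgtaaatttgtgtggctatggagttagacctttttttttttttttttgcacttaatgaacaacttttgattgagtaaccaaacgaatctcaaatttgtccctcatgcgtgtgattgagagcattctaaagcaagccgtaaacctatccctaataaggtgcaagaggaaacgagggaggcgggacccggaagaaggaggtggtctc

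The word occurs 4 times in the Ap1m2 stretch, of which the farthest begins 81 bases before the start and the nearest 9 bases before it. Epcam has it 187 and 19 bases before the start, Cldn7 97 and 57 bases, Krt8 111 bases, Krt18 214 bases and Cldn4 14 bases. Of the 36 windows of members, 25 held CAGGTG on either strand (69.4%), against 20.2% of all 32851 windows. Counted by gene, 21 of 27 members held it (77.8%). The share was 21.4% over all tested genes with a window and 25.2% over those called higher. In the wider lists of the same families described further on, 30 of 74 genes held it (40.5%). Among members, 17 of the 20 called genes with a window and 4 of the 7 others held it. Spint1, Cgn and Jup, which were called higher, do not hold it in their windows, and neither does Cldn10.

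Base composition differed between members and other genes, with a median GC content of 61.8% in member windows and 52.7% in all windows. In bins of GC content (below 50%, 50 to 60%, 60 to 70% and from 70%), the share of all windows with CAGGTG lay between 16.9% and 24.1%. From the lowest bin to the highest, 1 of 3, 8 of 9, 14 of 20 and 2 of 4 member windows held it. Other E-box words differed less between members and all windows: CAGCTG was in 13.9% of member windows and 16.3% of all windows, and CACGTG in 13.9% and 7.15%. The GC box GGGCGG was in 69.4% of member windows and 35.7% of all. The TEAD word GGAATG was in 11.1% and 14.7%, the AP-1 word TGANTCA in 8.33% and 7.81%, the TATA box TATAAA in 8.33% and 13.6%, and the grainyhead word ACCGGTT in 0 of 36 and 1.02%. All words were searched on both strands, and 0 of the 44 E-box matches in member windows overlapped a match to another of the 6 words fixed for the search. Several genes have more than 1 window, some of which overlap. A match describes letters in a window and is not a measured binding site.

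All 4 keratins rose in DCKO, from levels near 0 for Krt7 and Krt19 and from low levels for Krt8 and Krt18. Among them, Krt7 exceeded the filter level in DCKO libraries alone. Krt19, a small type I keratin of simple and ductal epithelia (ENSMUSG00000020911, chromosome 11, 100140810 to 100148665 on GRCm38), had 0.256 and 0.178 CPM in Control 1 and Control 2 against 60.9 and 174 in DCKO 1 and DCKO 2 (log2 fold change 9.05, SE 0.72, adjusted p 0.00653). Both DCKO libraries were far above Control, and DCKO 2 was 2.86 times DCKO 1. Krt7, a type II keratin of simple epithelia (ENSMUSG00000023039, chromosome 15, 101411043 to 101430313), had 7 and 0 counts in the Control pair against 1226 and 1028 in the DCKO pair. The 7 Control counts all came from Control 1, so the Control level is near the floor of 3 counts per library, and its fold change (log2 fold change 8.85, SE 0.73, adjusted p 0.00684) is uncertain in size. The antisense model Gm671 that overlaps it held at most 3 counts in any library.

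Krt8 and Krt18 are obligate partners and neighbours, 23.7 kb apart on chromosome 15. Krt8 (ENSMUSG00000049382, chromosome 15, 101996698 to 102004482) had 3.51 and 5.04 CPM in Control 1 and Control 2 against 57.9 and 81.5 in DCKO 1 and DCKO 2 (log2 fold change 4.03, SE 0.29, adjusted p 0.00602). Krt18 (ENSMUSG00000023043, chromosome 15, 102028180 to 102032027) had 2.48 and 3.103 CPM in Control 1 and Control 2 against 54.4 and 83.6 in DCKO 1 and DCKO 2 (log2 fold change 4.63, SE 0.301, adjusted p 0.00583). Both were expressed in Control at a low level, so these 2 fold changes rest on counts in all 4 libraries. A processed pseudogene, Krt8-ps, is 98.6% identical to Krt8 over 941 bases, held 2 and 2 counts in the Control pair against 32 and 36 in the DCKO pair, and may share some of its reads.

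Levels between genes can be compared per transcript length, as TPM, an abundance scaled to length and depth. In Control the keratins together had 7.03 and 7.39 TPM, 3.93% and 5.45% of the TPM of all 42 genes. In DCKO they had 151 and 340.3 TPM, 31.4% and 38.9%. By mean TPM, Krt19 moved from place 24 among the 42 genes in Control to place 1 in DCKO. In DCKO it had 50.8 and 173 TPM, but its SD there (86.6 around 112) spans the means of the next genes in order, Tjp1 (70.6) and Krt18 (70.2). The ratio of type I to type II keratins was 0.99 and 0.88 in Control and 2.001 and 3.45 in DCKO. Krt19 counts in the type I sum.

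The basal keratins of stratified epithelium were at few or 0 counts. Krt5, the type II keratin of basal epidermis, had 0 and 0 counts in the Control pair against 36 and 0 in the DCKO pair, and its partner Krt14 had 0 and 0 counts in the Control pair against 0 and 13 in the DCKO pair. Neither passed the filter. Of 24 other keratin genes in the table, chosen by family, 12 were at 0 in every library and 3 were tested. Of these 3, Krt20, a keratin of simple epithelia, was called higher (0 and 2 counts in the Control pair against 62 and 126 in the DCKO pair, a ratio of 138 with a 95% counting interval of 37.8 to 1150, adjusted p 0.0172). The other two are keratins of the upper layers of stratified epithelium, with both DCKO libraries below both Control libraries, and did not pass. Krt10 had 177 and 178 counts in the Control pair against 73 and 77 in the DCKO pair (log2 fold change -0.698, SE 0.35, adjusted p 0.214), and Krt1 had 20 and 23 counts in the Control pair against 12 and 9 in the DCKO pair (log2 fold change -0.5001, SE 0.59, adjusted p 0.585).

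**Figure D2:**
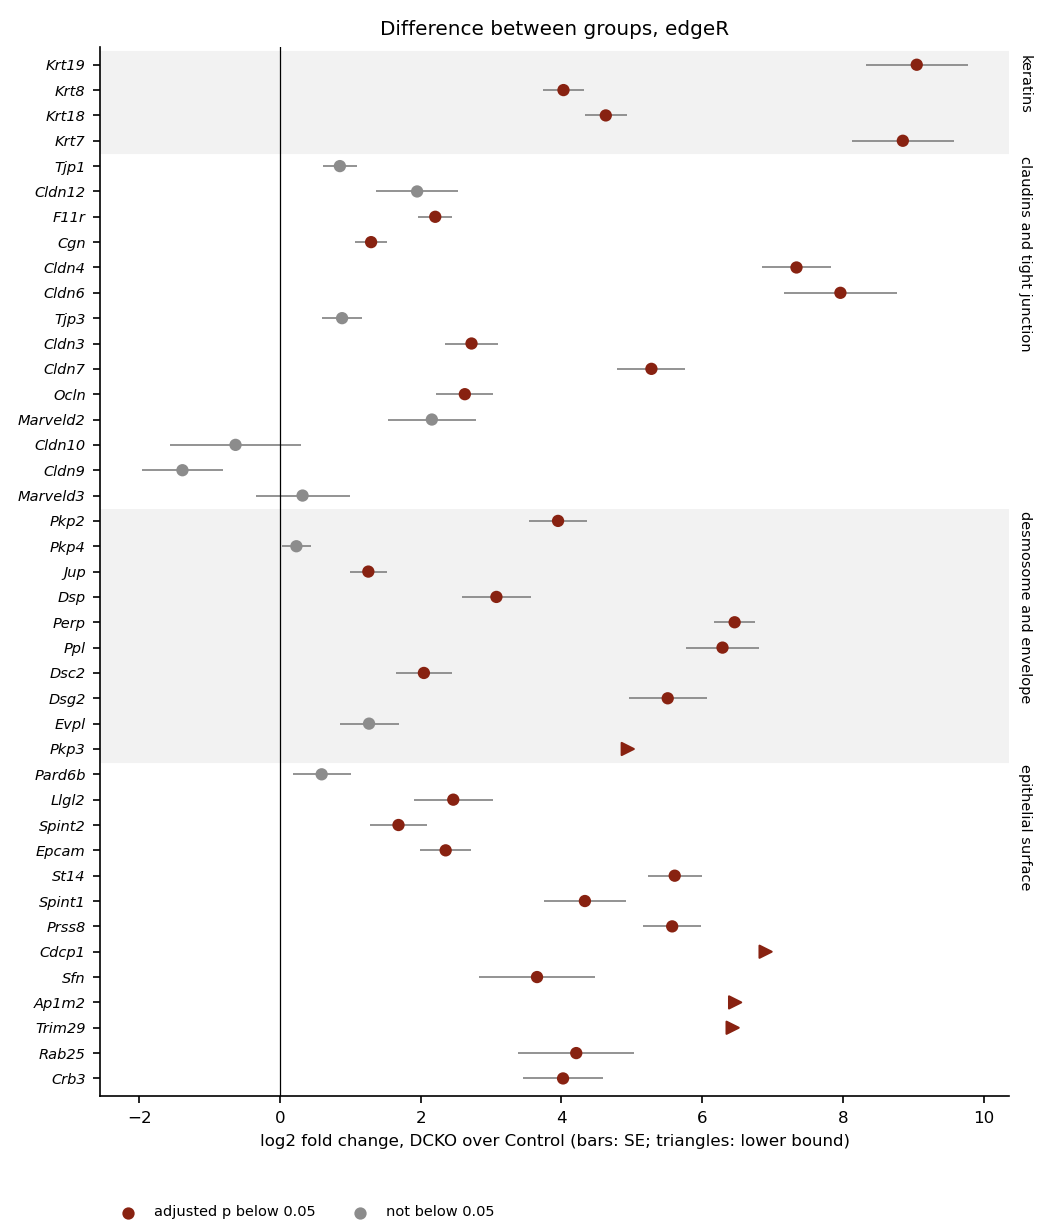
Log2 fold change, DCKO over Control, of the 41 tested members from edgeR, with bars for the standard error. Dark points passed an adjusted p of 0.05, grey points did not, and triangles mark the lower bound for genes at 0 in both Control libraries. All 4 keratins and 12 of 13 epithelial surface genes are dark, while 7 of 14 tight junction genes are grey.

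Only some of the tight junction genes passed the test. The claudins Cldn3, Cldn4, Cldn6 and Cldn7, occludin, JAM-A and cingulin were called higher. Cldn9, Cldn10, Cldn12, both Marveld genes and the scaffolds Tjp1 and Tjp3 did not pass. Both DCKO libraries lay above both Control libraries for 11 genes of the class and below them for 1, and the groups overlapped for 2. Of the 14 genes, 7 were called higher and 0 lower, and the median log2 fold change of the class was 2.05. Among the called genes, Cldn4, Cldn6 and Cldn7 exceeded the filter level in DCKO libraries alone. Claudins are the membrane proteins that set the tightness of the seal. Cldn4, which tightens epithelial seals (ENSMUSG00000047501, chromosome 5, 134945119 to 134946934), had 0.0639 and 0.07905 CPM in Control 1 and Control 2 against 8.87 and 14.9 in DCKO 1 and DCKO 2 (log2 fold change 7.34, SE 0.49, adjusted p 0.00596). The Control values of Cldn4 are 4 and 4 counts, close to the floor of 3, so its fold change is uncertain in size. Cldn3 lies 39.3 kb away on chromosome 5 and had 0.942 and 0.731 CPM in the Control pair against 6.32 and 4.76 in the DCKO pair (log2 fold change 2.72, SE 0.37, adjusted p 0.0147). Cldn7, which also binds the surface protein Epcam, had 0.176 and 0.0988 CPM in the Control pair against 4.85 and 6.14 in the DCKO pair (log2 fold change 5.28, SE 0.48, adjusted p 0.00765). All 3 had no overlap between groups.

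Cldn6 and Cldn9 are neighbours on chromosome 17, on opposite strands with 137 bases between their ends, and they differed in direction. Cldn6, a claudin of embryonic epithelia (ENSMUSG00000023906, chromosome 17, 23679249 to 23682446), had 5 and 0 counts in the Control pair against 409 and 468 in the DCKO pair (log2 fold change 7.96, SE 0.81, adjusted p 0.00822). The Control level of Cldn6 is near the floor, so its fold change is uncertain in size. Cldn9 (ENSMUSG00000066720, chromosome 17, 23682584 to 23684026) had 100 and 36 counts in the Control pair against 18 and 16 in the DCKO pair. Its Control libraries lay apart (1.597 and 0.711 CPM), both above DCKO, and its log2 fold change of -1.38 (SE 0.58) did not pass, with an adjusted p of 0.153. Cldn10 had 1.21 and 0.395 CPM in the Control pair against 0.875 and 0.162 in the DCKO pair, with overlapping groups (log2 fold change -0.63, SE 0.93, adjusted p 0.665). Its sign depended on single libraries: 0.39 without Control 1 and 0.11 without DCKO 2.

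Cldn12, an unusual claudin that lacks the tail motif for zonula occludens binding, had 30.7 and 28.3 CPM in Control 1 and Control 2 against 49.7 and 178 in DCKO 1 and DCKO 2. DCKO 2 stood far above the other 3 libraries, at 3.59 times DCKO 1. Its log2 fold change was 1.95 (SE 0.58) and did not pass, at an adjusted p of 0.0725. It was 0.75 without DCKO 2, where it passed (adjusted p 0.0292), and 2.59 without DCKO 1, so its size rests on DCKO 2.

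Occludin, the first tight junction membrane protein described, is encoded by Ocln and had 0.495 and 0.613 CPM in the Control pair against 3.799 and 3.06 in the DCKO pair (log2 fold change 2.63, SE 0.41, adjusted p 0.0177). Its neighbour Marveld2, which encodes tricellulin of the corners where several cells meet, had 0.415 and 1.03 CPM in the Control pair against 2.12 and 4.303 in the DCKO pair and missed the threshold (log2 fold change 2.16, SE 0.63, adjusted p 0.0694). F11r, the junctional adhesion molecule JAM-A, had 5.06 and 4.47 CPM in the Control pair against 25.00 and 19.03 in the DCKO pair (log2 fold change 2.21, SE 0.24, adjusted p 0.009397). Cgn, the cytoplasmic plaque protein cingulin, had 6.08 and 5.63 CPM in the Control pair against 13.05 and 15.7 in the DCKO pair (log2 fold change 1.295, SE 0.23, adjusted p 0.0233). A pseudogene, BC021767, is 98.7% identical to Cgn over 1716 bases and held at most 30 counts. Marveld3 was near the low end in every library, with 12 and 23 counts in the Control pair against 18 and 13 in the DCKO pair and an adjusted p of 0.766.

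The zonula occludens scaffolds were already expressed in Control. Tjp1, which also serves adherens junctions of the neural tube, had 173 and 143 CPM in the Control pair against 228 and 342 in the DCKO pair. Both DCKO libraries were above both Controls in CPM, but the log2 fold change of 0.85 (SE 0.24) gave an adjusted p of 0.0663. By mean TPM it held place 1 among the 42 genes in Control (45.4 ± 11.2 TPM) and place 2 in DCKO (70.6 ± 29.7, SD, n = 2). In TPM the groups of Tjp1 overlapped, with 53.3 and 37.5 in the Control pair against 49.6 and 91.6 in the DCKO pair. Tjp3, an epithelial relative, had 3.78 and 3.162 CPM in the Control pair against 5.95 and 6.87 in the DCKO pair (log2 fold change 0.88, SE 0.29, adjusted p 0.09095), and it overlaps Apba3 on the other strand, which held 677 to 882 counts per library.

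Desmosome and envelope genes rose at each layer of the junction, with 8 of 10 tested genes called higher and a median log2 fold change of 3.51. Among the called genes, Dsg2, Pkp3 and Ppl exceeded the filter level in DCKO libraries alone. Of the desmosomal cadherins, Dsg2 had 8 and 5 counts in the Control pair against 147 and 257 in the DCKO pair (log2 fold change 5.51, SE 0.55, adjusted p 0.00806) and Dsc2 had 194 and 78 counts in the Control pair against 380 and 359 in the DCKO pair (log2 fold change 2.05, SE 0.402, adjusted p 0.0288). Dsg2 was thus close to absent in Control, while Dsc2 was present, with Control 1 above Control 2 in CPM (3.098 and 1.54). The antisense model Gm16090 overlaps Dsg2 and held at most 19 counts. Dsg1a, a desmoglein of stratified epithelium, had 0 and 0 counts in the Control pair against 5 and 8 in the DCKO pair, and Dsg3, Dsc1 and Dsc3 were at 0 in all 4 libraries.

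The plakophilins, which bind the cadherin tails, behaved unequally. Pkp2, the plakophilin of simple epithelia and heart (ENSMUSG00000041957, chromosome 16, 16213318 to 16272712), had 7.697 and 7.27 CPM in Control 1 and Control 2 against 72.4 and 159 in DCKO 1 and DCKO 2 (log2 fold change 3.95, SE 0.42, adjusted p 0.00913). Both DCKO libraries were above Control, and DCKO 2 was 2.201 times DCKO 1. Pkp3 was at 0 in Control with 43 and 82 counts in DCKO, which puts it at least 30.7-fold higher (adjusted p 0.0163). Pkp1, the plakophilin of stratified epithelium, had 21 counts in DCKO 1 and 0 elsewhere, and it did not enter the test. Pkp4, a broadly expressed relative, had 69.8 and 62.3 CPM in the Control pair against 65.8 and 89.6 in the DCKO pair with overlapping groups (log2 fold change 0.23, SE 0.21, adjusted p 0.458). It was a leading member in Control by TPM, in place 2, and its sign turned with library totals as scaling (-0.12) and without DCKO 2 (-0.01).

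Desmoplakin, which ties the plaque to keratin filaments, is encoded by Dsp (ENSMUSG00000054889, chromosome 13, 38151294 to 38198577). It had 7.06 and 3.12 CPM in Control 1 and Control 2 against 55.1 and 30.96 in DCKO 1 and DCKO 2 (log2 fold change 3.08, SE 0.49, adjusted p 0.0186). Control 1 and DCKO 1 were the higher library of their groups, and the groups did not overlap. Jup, plakoglobin, is shared with adherens junctions and was well expressed in Control, with 24.6 and 25.2 CPM in the Control pair against 73.6 and 45.4 in the DCKO pair (log2 fold change 1.26, SE 0.26, adjusted p 0.0321). The plakin Ppl, periplakin, had 6 and 8 counts in the Control pair against 289 and 471 in the DCKO pair (log2 fold change 6.29, SE 0.52, adjusted p 0.00684). Its partner Evpl, envoplakin, had 61 and 35 counts in the Control pair against 84 and 71 in the DCKO pair and did not pass (log2 fold change 1.27, SE 0.42, adjusted p 0.09299). Perp, a desmosomal membrane protein and target of p63 in epithelia (ENSMUSG00000019851, chromosome 10, 18845020 to 18857073), went from 0.262 ± 0.0356 CPM in the Control pair to 23.4 ± 2.38 in the DCKO pair (SD, n = 2; log2 fold change 6.46, SE 0.29, adjusted p 0.003204). The 2 DCKO libraries of Perp were close, DCKO 2 being 0.866 times DCKO 1.

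Epithelial surface genes were called higher in 12 of 13 cases, with a median log2 fold change of 4.21. Among the called genes, Cdcp1, Ap1m2, Trim29, Prss8, Rab25 and Crb3 exceeded the filter level in DCKO libraries alone. Of the called genes, 3 were at 0 in both Control libraries. Cdcp1, a surface glycoprotein phosphorylated by Src kinases, had 287 and 208 counts in DCKO, which is at least 119-fold higher (adjusted p 0.00734). Ap1m2, the epithelial subunit of the AP-1 clathrin adaptor that sorts proteins to the basolateral side, had 165 and 198, at least 88.5-fold higher (adjusted p 0.00788). Trim29, a protein of stratified epithelia, had 237 and 123, at least 86.3-fold higher (adjusted p 0.009303). These values are lower bounds against a floor of 3 counts per Control library.

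RNAs of the surface proteases matriptase and prostasin and of their inhibitors were called higher, by unlike amounts. Protease activity was not measured. St14 encodes the membrane protease matriptase (ENSMUSG00000031995, chromosome 9, 31089402 to 31131853) and had 10 and 12 counts in the Control pair against 412 and 338 in the DCKO pair (log2 fold change 5.61, SE 0.39, adjusted p 0.00602). Prss8, prostasin, the protease that acts with it, had 8 and 10 counts in the Control pair against 322 and 278 in the DCKO pair (log2 fold change 5.57, SE 0.41, adjusted p 0.00602), and it overlaps Kat8, which held 1015 to 1569 counts per library. Their inhibitors Spint1 and Spint2 both rose. Spint1 had 30 and 16 counts in the Control pair against 457 and 177 in the DCKO pair (log2 fold change 4.33, SE 0.58, adjusted p 0.0136), and Spint2 had 213 and 271 counts in the Control pair against 731 and 364 in the DCKO pair (log2 fold change 1.68, SE 0.404, adjusted p 0.0453). Spint2 was already expressed in Control and lost its call without Control 1, Control 2 or DCKO 1 (adjusted p 0.222, 0.128 and 0.0548), with library totals (0.0592) and with a replicate block (0.0831). In CPM, DCKO 2 was 0.419 times DCKO 1 for Spint1 and 0.539 times for Spint2.

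Epcam, the epithelial cell adhesion molecule (ENSMUSG00000045394, chromosome 17, 87635979 to 87651129), had 1.900 and 2.27 CPM in Control 1 and Control 2 against 13.5 and 7.85 in DCKO 1 and DCKO 2 (log2 fold change 2.35, SE 0.37, adjusted p 0.0179). Rab25, an epithelial GTPase of recycling vesicles, had 2 and 9 counts in the Control pair against 92 and 57 in the DCKO pair (log2 fold change 4.21, SE 0.82, adjusted p 0.0285). Sfn, the 14-3-3 sigma protein of epithelia, had 9 and 38 counts in the Control pair against 160 and 264 in the DCKO pair (log2 fold change 3.65, SE 0.82, adjusted p 0.0388), with Control 2 above Control 1. A processed pseudogene, Gm7850, is 97.5% identical to Sfn over 712 bases and held at most 3 counts. Crb3, the crumbs protein of epithelial apical membranes, had 5 and 7 counts in the Control pair against 60 and 77 in the DCKO pair (log2 fold change 4.02, SE 0.57, adjusted p 0.0155). Crb3 overlaps Slc25a23 on the other strand, which held 3770 and 3889 counts in the Control pair against 1313 and 1051 in the DCKO pair, so its own reads are not separable where counting ignored strand. Llgl2, a basolateral polarity protein, had 2.99 and 2.75 CPM in the Control pair against 7.67 and 23.98 in the DCKO pair (log2 fold change 2.46, SE 0.56, adjusted p 0.03996). Pard6b, of the apical Par complex, had 15.4 and 14.3 CPM in the Control pair against 13.3 and 31.6 in the DCKO pair with overlapping groups (log2 fold change 0.59, SE 0.41, adjusted p 0.3497). It was -0.17 without DCKO 2 and 1.08 without DCKO 1.

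The 2 DCKO embryos differed from each other in both directions, depending on the gene. DCKO 2 was higher than DCKO 1 in CPM for 22 of the 41 tested members and lower for 19, with a median log2 ratio of 0.21 against -0.0018 over all tested genes. At least 2-fold differences between the DCKO libraries were found for 21.95% of members and 18.2% of all tested genes. The Control libraries were at least 2-fold apart for 8 of the 35 tested members with counts in both. Over all tested genes, including those at 0 in a single Control library, that share was 9.59%. DCKO 2 was at least 2-fold higher for 7 genes: Cldn12, Llgl2, Krt19, Pard6b, Pkp2, Pkp3 and Marveld2. It was at least 2-fold lower for Cldn10 and Spint1, and less so for Spint2, Dsp, Trim29, Epcam and Jup. Summed over the 42 genes, TPM was 481 in DCKO 1 and 874 in DCKO 2. Of the 14 tested surface ectoderm markers, 11 were higher in DCKO 2 and 3 lower, with a median log2 ratio of 0.5001. Of the 12 endothelial markers, 2 were higher in DCKO 2 and 10 lower, with a median of -0.75. The part of these differences in the spread of the members was not tested. Cdh1, E-cadherin, had 5.76 and 5.02 CPM in the Control pair against 87.8 and 42.6 in the DCKO pair, higher in DCKO 1, and Dlx3 had 0.367 and 0.474 CPM in the Control pair against 3.72 and 11.3 in the DCKO pair, higher in DCKO 2.

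**Figure D3:**
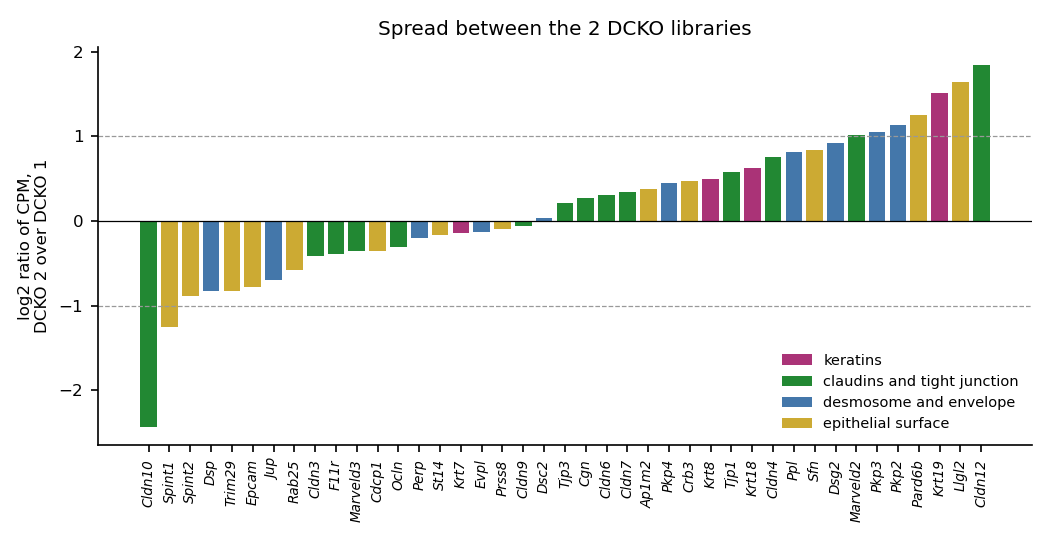
Log2 ratio of CPM, DCKO 2 over DCKO 1, for the 41 tested members in rising order, coloured by class. Dashed lines mark 2-fold. Bars run from Cldn10, Spint1 and Spint2 on the low side to Krt19, Llgl2 and Cldn12 on the high side, with both signs present in each class.

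Genes of the same families and complexes outside the list moved in both directions, with more called higher than lower. These 118 genes were taken by family. Of them, 27 were at 0 in all libraries and 65 were tested. Of the 65, 18 were called higher and 6 lower, and their median log2 fold change was 0.44. Over all tested genes 8.93% were called higher and 8.11% lower, with a median of 0.03. The number called lower was thus near the share over all genes. The same shares are the background for the separate lists below. With library totals as scaling, the wider lists had 12 higher and 13 lower. Over all genes that scaling gave 1219 higher and 3744 lower, against 1716 and 1558. That scaling put the median of all genes at -0.32.

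Of 24 tested tight junction genes in these lists, 8 were higher and 2 lower. Cldn11 had 59 and 49 counts in the Control pair against 498 and 317 in the DCKO pair (log2 fold change 3.46, SE 0.34, adjusted p 0.00806). Cldn8 was at 0 in Control with 57 and 30 counts in DCKO, at least 20.9-fold higher (adjusted p 0.0175). Patj, a scaffold of the crumbs complex, rose by a log2 fold change of 1.37 (adjusted p 0.0178). Of the membrane proteins of cell contacts, Jam2 fell by 0.84 and Ildr2 fell by 1.31 on the log2 scale (adjusted p 0.0353 and 0.0369). Of 8 tested desmosome, envelope and hemidesmosome genes, 2 were higher, and both encode the integrin of hemidesmosomes. Itgb4 had 28 and 26 counts in the Control pair against 227 and 171 in the DCKO pair (log2 fold change 3.42, SE 0.38, adjusted p 0.00944), and Itga6 rose by 0.82 (adjusted p 0.0269).

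Of 30 tested polarity and surface genes, 7 were higher and 4 lower. The epithelial splicing factor gene Esrp1 rose by a log2 fold change of 3.45 and Cdh1 by 3.595 (adjusted p 0.00806 and 0.00927). Of the 4 that were lower, the basolateral proteins Scrib and Llgl1 and the crumbs protein Crb1 were named by the rule: Scrib fell by 1.505, Llgl1 fell by 0.69 and Crb1 fell by 3.397 on the log2 scale (adjusted p 0.00806, 0.0375 and 0.0294).

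Some members and their paralogs went in opposite directions. These sets were picked after their values were seen. Llgl2 was higher in DCKO and Llgl1 lower, yet per length Llgl1 stayed the more abundant, with 122 and 92.6 TPM in the Control pair against 49.6 and 62.7 in the DCKO pair. Llgl2 had 2.26 and 1.71 TPM in the Control pair against 3.94 and 11.1 in the DCKO pair. Crb3 was higher, while Crb1 and Crb2 were lower, Crb2 with 35.4 and 27.6 TPM in the Control pair against 14.1 and 19.4 in the DCKO pair (adjusted p 0.0443). Ap1m2 appeared in DCKO with 3.15 and 4.88 TPM beside the ubiquitous Ap1m1, which had 106 and 95.4 TPM in the Control pair against 71.4 and 70.1 in the DCKO pair and an adjusted p of 0.243.

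**Figure D4:**
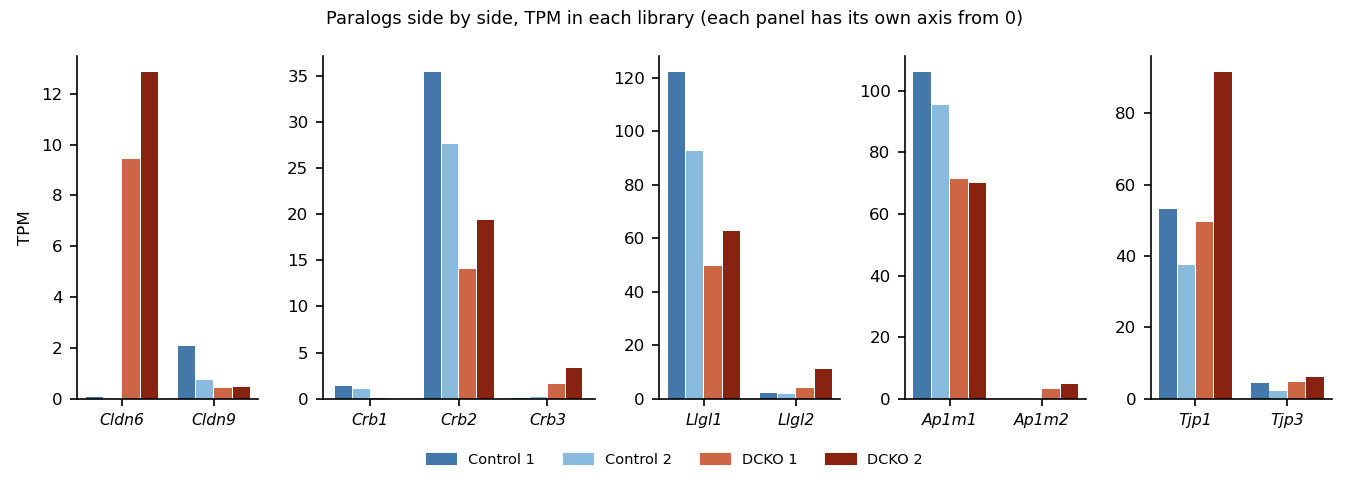
TPM in each of the 4 libraries for members and their paralogs, with a separate axis from 0 in each panel. Cldn6, Crb3, Llgl2 and Ap1m2 have their higher bars in DCKO, while Cldn9, Crb1, Crb2, Llgl1 and Ap1m1 have theirs in Control, and Tjp1 is highest in DCKO 2.

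Markers of several cell types differed between the same libraries. Of 17 surface ectoderm and placode markers, 14 were tested, 8 of these were higher and 0 lower, and their summed level was 84.6 to 89.97 CPM in Control and 261 to 308 in DCKO. Pitx1, Krt5 and Krt14 of this list were at 0 in both Controls and were not tested. Pitx1 had 0 and 6 counts in the DCKO pair. Trp63, the defining factor of stratified epithelia, had 2 and 2 counts in the Control pair against 699 and 649 in the DCKO pair. The groups overlapped for Tfap2b, Tfap2c and Dlx5 (log2 fold change 0.54, 0.01 and -1.11). Cdh1, Esrp1, Grhl3, Krt5 and Krt14 are also in the wider lists, as is Cldn5 of the endothelial list, and Sox17 is in both the endothelial and the endoderm list. Of 12 endothelial markers 8 were higher and 0 lower (summed 181 to 193 CPM in Control, 527 to 902 in DCKO), and of 13 cranial mesenchyme markers 10 were higher and 0 lower (559.8 to 582 and 1725 to 3595). Of 12 neural progenitor markers 9 were lower and 0 higher (1926 to 2201 and 436 to 560.3). Of 12 pharyngeal endoderm and pituitary epithelium markers, 9 were tested, with 2 higher and 2 lower (53.3 to 56.8 and 45.5 to 47.7). The 2 higher ones were Sox17 and Foxe1, the latter with 0 and 0 counts in the Control pair against 10 and 22 in the DCKO pair. Hesx1, Lhx3 and Cer1 were at 0 in both DCKO libraries. In the Control pair Hesx1 had 18 and 9 counts, Lhx3 32 and 19, and Cer1 only 0 and 2. The part of these differences in the rise of the keratin and junction genes was not tested.

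In the authors' deposited table of differential expression, which lists 12574 genes, 15.6% had a positive fold change and 13.2% a negative one at a false discovery rate below 0.05. It holds 32 of the 42 genes, of which 29 were higher and 0 lower at that rate. Cldn9 and Cldn10, the only tested members with a fold change below 0 here, are not listed there. The absence of lower members in that table therefore does not cover them. In the authors' deposited table Cldn12 and Tjp1 pass, while Tjp3, Pkp4 and Pard6b do not.

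The number of members called higher changed with the libraries in the fit. It was 17 without Control 1 and 14 without Control 2, fits in which the spread comes from the 2 DCKO libraries alone, and 0 members were called lower in either. Every keratin, Cldn4, Cldn6, Cldn7, Ppl, Perp, Cdcp1, Prss8, St14, Ap1m2 and Trim29 passed in both. Most of these (Krt7, Cldn4, Cldn6, Cldn7, Ppl, Cdcp1, Prss8, Ap1m2 and Trim29) exceeded the filter level of the main fit in DCKO libraries alone. Leaving out a Control library is therefore a weak check for them. Of the 31, 14 lost their call without Control 1 and 17 without Control 2. Without DCKO 1 only Spint2 of the 31 lost it, without DCKO 2 none of them. With library totals Jup and Spint2 did not pass, with limma-voom Llgl2, and on filtered TPM Cgn, joined by Dsc2 at the smaller pseudocount. With a replicate block Jup, Llgl2, Cgn and Spint2 did not pass. In DESeq2 Cldn12, Tjp1 and Marveld2 passed as well.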

How the data were processed

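Polyadenylated RNA of microdissected cranial neural tubes was sequenced with a stranded kit, per the labels. The authors deposited whole-number read counts per Ensembl gene without scaling, TPM per gene, and a table of log2 fold changes with p-values and false discovery rates. Per the submitters' processing notes, TopHat2 2.1.1, StringTie, edgeR 3.16.5, limma 3.30.13, R 3.3.2, mm10 and GRCm38 were used, without roles, and use of strand in counting is not given in the sources used here. The sign of the deposited fold changes was checked against the counts: positive is higher in DCKO.

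Of 54532 gene IDs, 54495 matched GENCODE M21 (GRCm38), the source of symbols and coordinates. Counts were tested with edgeR 4.0.16 in R 4.3.3: filterByExpr (minimum count 10, minimum total 15), TMM scaling, a quasi-likelihood F test with group as the only term, two-sided, and Benjamini-Hochberg adjustment over all 19207 tested genes. CPM use TMM-scaled totals. The SE is the log2 fold change over the root of F. The floor of 3 counts is 0.0479 to 0.0812 CPM by library. Floors and counting intervals cover counting error alone, since reads carry no molecular identifiers. Each library is a separate embryo per the design text. The test was checked on simulated data. Alternatives were DESeq2 1.42.0, limma 3.58.1 (voom, and log2(TPM + 1 or 0.1)), other scalings and filters, a replicate block and leaving out each library. The members, gene lists and words searched in promoters were chosen with earlier results of these data known. Named genes are all members, up to 3 called genes per direction and smallest p of each wider list, Lats1 and Lats2. Others (Crb2, Ap1m1, Dsg1a, Krt1, Krt10, the absent desmosomal cadherins, Xist and single cell type markers) were chosen after their values were seen. Near-identical copies were found with blastn at 95% identity over at least 100 bases. Promoter sequences are RefSeq's on GRCm38.p6. Some results are not reported here.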

Additional observations from a re-analysis of the deposited data

How the results depend on the processing

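The number of members called higher, 31, lay between 26 and 34 under each change of scaling, filter, test or unit but one, and 0 were called lower. Filtered TPM tested 27 of the 31 and called 26 of them (pseudocount 1) and 25 (0.1). The exception was limma on log2(TPM + 1) with no filter, which called 0 members and 0 of all genes, with 31 members at an unadjusted p below 0.05; the wider lists then gave 0 higher and 0 lower. The median log2 fold change of tested members was 1.75 and 3.38 on log2(TPM + 1) and log2(TPM + 0.1) at a mean TPM of at least 1, 1.62 without that filter, 3.31 with library totals, 3.76 in DESeq2, 3.84 in limma-voom and 3.77 with no filter on counts. Filtered TPM gave 1007 (pseudocount 1) and 958 (0.1) higher genes over all, 7 and 7 higher in the wider lists and, with 0.1, 3 lower. DESeq2 and library totals gave 2672 and 3744 lower genes over all, and library totals 13 lower in the wider lists. Leaving out each library in turn, members called higher ranged from 14 to 34, their median from 3.35 to 3.96, the wider lists from 1 to 24 higher and 0 to 8 lower, and all genes from 155 to 2619 higher and 72 to 2565 lower. The cause of these changes was not tested. Signs turned for 4 uncalled members. Leaving out each library, log2 fold changes ranged from -0.19 to 1.02 for Marveld3 (lowest without Control 1), -0.0084 to 0.43 for Pkp4 and -0.17 to 1.08 for Pard6b (both lowest without DCKO 2) and -2.31 to 0.39 for Cldn10 (above 0 without Control 1 or DCKO 2). With library totals, which put the median of all genes at -0.32, Marveld3 had -0.021 and Pkp4 -0.12. On filtered TPM that median was -0.19 and -0.21.

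Replicate numbers of the titles were shared between groups, but same-numbered libraries did not deviate together (r = -0.0964 across genes, which are not independent replicates). A single correlation over genes cannot exclude that same-numbered libraries shared a litter or a batch. With a replicate block, 27 members were higher with a median of 3.84, 2 genes of the wider lists were lower, and 1002 genes over all were higher and 776 lower. With 2 libraries per group, 2 residual degrees of freedom limit the test, and genes near 3 counts per library have no measured fold.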
